A study of Mus musculus with 19 samples.

Results

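The 10 genes described here encode heat shock proteins and other chaperones: the inducible HSP70 genes Hspa1a and Hspa1b, the constitutive HSP70 gene Hspa8, the testis HSP70 genes Hspa2 and Hspa4l, the endoplasmic reticulum HSP70 gene Hspa5, the cytosolic HSP90 genes Hsp90aa1 and Hsp90ab1, and the mitochondrial chaperonin genes Hspd1 and Hspe1. They were chosen by symbol, not by a measured value, though earlier results of these data were known. They are 10 of 26180 RefSeq genes on chromosomes 1 to 19, X and Y. The study mapped where the transcription factors ZBTB16, SALL4 and SOX3 sit on chromatin of the juvenile mouse testis, and SOX3, a factor of undifferentiated spermatogonia, is the one examined here. The values come from 2 replicates of SOX3 ChIP-seq on testis at postnatal day 7, each replicate deposited as its own peak list (58351 peaks in replicate 1 and 38832 in replicate 2). The labels name a pair of SOX3 antibodies for these samples, of which the methods text gives a single one. The labels give no genetic alteration, treatment or strain for these samples, and the 2 samples form 1 group with no group to set against it, so the values below are descriptions without a test. Per the study's methods, the tissue was seminiferous tubules taken from several mice, which makes a replicate a pool of animals. Whole testis holds Sertoli, Leydig and other somatic cells beside the germ cells, and a strong peak in few cells and a weaker one in many cannot be told apart. Peak lists hold no expression, so the labelled tissue could not be checked against marker genes.

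HSP70 proteins bind exposed stretches of unfolded proteins in cycles driven by ATP, HSP40 proteins deliver substrates to them, and HSP90 proteins take over partly folded clients such as kinases and steroid receptors. The mitochondrial chaperonin encloses a protein in an HSP60 barrel (encoded by Hspd1) closed by an HSP10 lid (encoded by Hspe1). Heat shock factors switch many of these genes on through the heat shock element, a series of inverted GAA units, while male germ cells express several family members as part of their normal development, and HSPA2 is needed in meiosis.

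The sequence in front of the genes is shown for those where it tells members apart. RefSeq promoter entries (GRCm38.p6, 250 bases before to 50 bases after a start) were found for 7 of the 10 genes. Hspa8, Hsp90aa1 and Hsp90ab1 had none. The inducible pair is printed because its promoters are nearly the same, at 247 of 250 bases. Hspa1a lies at chr17:34972157-34972406 and Hspa1b at chr17:34959239-34959488, both on the minus strand, and capitals mark the paired unit GAANNTTC and, nearer the start, CCAAT on the opposite strand.
Hspa1a: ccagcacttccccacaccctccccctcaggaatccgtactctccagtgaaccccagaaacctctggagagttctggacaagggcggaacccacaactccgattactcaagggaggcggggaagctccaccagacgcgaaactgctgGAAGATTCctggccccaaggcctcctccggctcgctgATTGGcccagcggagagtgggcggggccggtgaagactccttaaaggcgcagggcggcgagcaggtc
Hspa1b: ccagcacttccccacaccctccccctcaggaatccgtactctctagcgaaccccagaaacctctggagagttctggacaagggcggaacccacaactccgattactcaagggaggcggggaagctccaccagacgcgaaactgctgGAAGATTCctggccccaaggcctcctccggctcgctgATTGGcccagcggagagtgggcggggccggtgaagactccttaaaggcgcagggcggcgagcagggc
The promoter of Hspa5, which encodes the ER chaperone BiP, is printed for an exact endoplasmic reticulum stress element (chr2:34771840-34772089, plus strand). This element is CCAAT and CCACG with 9 bases between them, and its 2 ends are in capitals. Imperfect copies were not searched.
Hspa5: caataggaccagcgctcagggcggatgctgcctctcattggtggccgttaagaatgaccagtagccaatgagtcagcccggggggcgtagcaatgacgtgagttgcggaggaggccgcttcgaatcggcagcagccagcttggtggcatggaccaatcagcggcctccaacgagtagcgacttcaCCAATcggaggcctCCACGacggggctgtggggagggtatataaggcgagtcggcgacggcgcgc
Hspa4l is printed as a promoter with no exact match to these elements, and capitals mark GGGCGG on either strand (chr3:40745363-40745612, plus strand).
Hspa4l: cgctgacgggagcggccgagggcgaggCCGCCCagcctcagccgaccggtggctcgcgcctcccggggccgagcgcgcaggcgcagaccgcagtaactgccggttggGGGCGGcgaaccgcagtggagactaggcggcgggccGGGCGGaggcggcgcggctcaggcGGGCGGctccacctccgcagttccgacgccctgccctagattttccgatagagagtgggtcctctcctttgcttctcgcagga
Hspd1 and Hspe1 start from opposite strands of 1 shared promoter. The 30 bases at chr1:55088053-55088082, read on the Hspe1 (plus) strand, hold their run of alternating TTC and GAA units 2 bases apart (in capitals), which spans -89 to -72 from the Hspe1 start.
Hspe1: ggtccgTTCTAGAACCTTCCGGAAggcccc

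Only exact matches were searched, on both strands of the 300-base windows. A heat shock element of 3 units (TTCNNGAANNTTC or GAANNTTCNNGAA) was matched for 2 of the 7 genes, Hspd1 and Hspe1, which share the same bases. Among the 27025 genes in the promoter table, 0.662% had such a match. The paired unit GAANNTTC, which such an element contains, occurred for 4 of the 7, Hspa1a, Hspa1b, Hspd1 and Hspe1, against 9.04% of all genes. Its companion TTCNNGAA occurred for Hspd1 and Hspe1 (9.60% of all genes). These genes are not separate cases, since Hspd1 and Hspe1 match on the same bases and Hspa1a and Hspa1b have nearly the same promoter. At the inducible pair GAANNTTC stood at -104 to -97 in both genes. In both printed sequences it closes the run gaaactgctgGAAGATTC, in which tgc stands where an exact element would have TTC. Such imperfect elements were not counted, so the missing match does not show that the inducible pair lacks a heat shock element. CCAAT was present for 5 of the 7 (all but Hspa4l and Hspe1, against 41.1% of all genes), GGGCGG for all 7 (38.2%) and TATAAA for none (15.7%). Only those exact letters were counted, and the printed Hspa5 sequence holds the similar run tatataa near its start. CCAAT and CCACG 9 bases apart occurred only for Hspa5, at -65 to -47, and for 0.137% of all genes. Of 3 SOX-type words, AACAAT was in none of the 7 windows and in those of 12.2% of all genes. The word ACAAAG was in none of the 7 (21.0% of all genes), nor was the word ACAATG (14.3%). The GC content of the 7 genes ran from 61.0% to 74.7%, against a median of 57.7% over protein-coding genes (highest window of each gene). No share matched for GC was computed. The windows cover only part of each peak, so these words may still occur elsewhere in the peaks. All the counts above are matches of letters in short windows, and none was tied to SOX3 or to a heat shock factor by a measurement here.

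The study took promoters as 2 kb either side of a start, for peaks merged over replicates, and added some genes by further rules. Here a promoter peak was any peak of a single replicate with a base within 2 kb of an annotated start. All 10 genes had one in replicate 1 and all 10 in replicate 2, and hence 10 of 10 in both. Among all RefSeq genes the share was 62.7% in replicate 1, 54.7% in replicate 2 and 52.2% in both. Among protein-coding genes 57.9% had a promoter peak in both replicates, and among protein-coding genes whose promoter was CpG-rich (observed over expected CpG above 0.6 and GC above 50% in the RefSeq window) 89.8% did. This last share is close to the 10 of 10 seen here, and 5 of the 7 genes with an entry were CpG-rich. Hspa1a (0.542) and Hspa1b (0.577) fell just short of the CpG minimum, while Hspa4l (1.01), Hspd1 (0.994), Hspe1 (0.976), Hspa5 (0.901) and Hspa2 (0.664) passed it. Each of the strongest promoter peaks covered the start itself, and in each case the peaks of the 2 replicates overlapped by at least 50%.

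The peaks were stronger than usual for a bound gene at most of the 10. The strength is given as the q score, the FDR-adjusted p-value of the authors' peak caller on a scale of 10 times the negative log10, with only scores above 30 kept. The median q score of the strongest promoter peak was 434 in replicate 1 and 178 in replicate 2 for the 10 genes, compared with 165 and 78.8 over all genes with a promoter peak. Because scores in replicate 1 ran higher throughout, each score was also placed as a percentile among the bound genes of its own replicate. The median percentile of the 10 genes was 91.9 and 91.8. The reference was all bound genes, not those with a CpG-rich promoter alone. Whether the scores exceed those of other CpG-rich promoters was not tested. In replicate 1, 9 of the 10 lay above the 50th percentile and 6 above the 90th, and in replicate 2 these numbers were 8 and 6. The peak that Hspd1 and Hspe1 share enters these counts and medians once for each gene. The log2 ratio of ChIP over input had a median of 4.84 and 3.37, against 3.67 and 2.72 over all bound genes, and it was above the median of all bound genes for 10 of the 10 in replicate 1 and 7 in replicate 2. The peaks were also wide, with median widths of 2035 bp and 1814 bp against 1641 bp and 1329 bp.

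**Figure D1:**
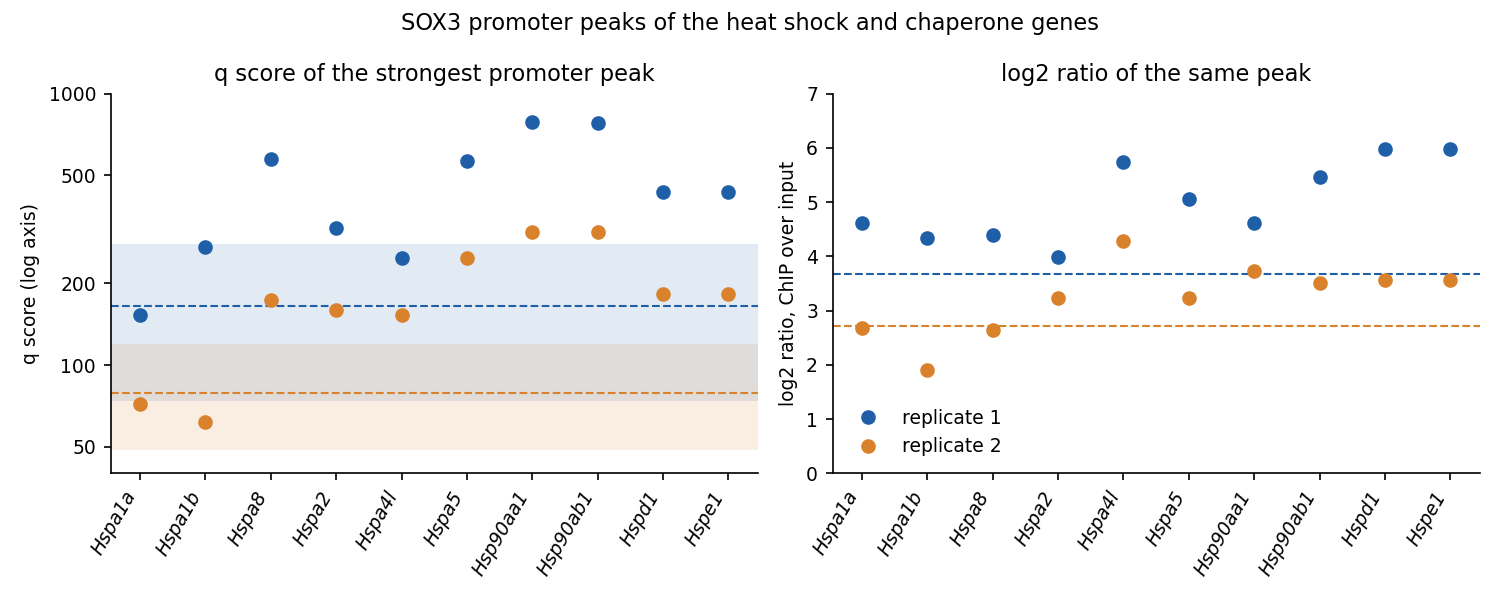
Strongest SOX3 promoter peak of each gene in replicate 1 (blue) and replicate 2 (orange). Left, q score on a log axis; right, log2 ratio of ChIP over input. Dashed lines are the medians over all genes with a promoter peak in that replicate and shaded bands (left) the middle 50% of them. Hsp90aa1 and Hsp90ab1 have the highest q scores in both replicates (777 to 785, and 309 to 310), and Hspa1a and Hspa1b in replicate 2 (71.9 and 61.6) lie under the median of 78.8.

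The inducible HSP70 genes Hspa1a and Hspa1b, which are low without stress and rise steeply with heat, had the lowest scores of the 10, Hspa1a in replicate 1 and Hspa1b in replicate 2. Hspa1a (chr17:34969359-34972156, minus strand, 1 exon) had a promoter peak at chr17:34971927-34973538 in replicate 1 with a q score of 153 and a log2 ratio of 4.62, and at chr17:34971869-34973101 in replicate 2 with a q score of 71.9 and a log2 ratio of 2.67. These were its percentiles 47.0 and 44.6, below the middle of all bound genes in both replicates. Hspa1b (chr17:34956429-34959238, minus strand, 1 exon) had a q score of 272 in replicate 1 (chr17:34958674-34960610, log2 ratio 4.33) and 61.6 in replicate 2 (chr17:34959024-34960160, log2 ratio 1.91). Its percentile differed between the replicates more than that of any other of the 10 genes, at 73.8 and 36.5. The order of the pair therefore turned over, with Hspa1b above Hspa1a in replicate 1 and below it in replicate 2.

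Hspa1a and Hspa1b were also the pair whose sequence is hardest to assign. Of the 50-base words of the gene, about the length of a read here, 35.9% occurred once in the genome for Hspa1a and 37.8% for Hspa1b. Within the promoter peaks the share was 83.6% in replicate 1 and 73.5% in replicate 2 for Hspa1a, and 71.3% and 77.8% for Hspa1b. The authors' aligner placed reads that fit several sites at 1 of them at random, so the values of these 2 genes are uncertain relative to each other, and the part of shared reads in them was not tested. Of the words of the whole Hspa1a gene, 62.4% occurred in the Hspa1b gene as well. Of the words of the Hspa1a promoter peaks, 16.4% in replicate 1 and 9.73% in replicate 2 occurred in the promoter peak of Hspa1b. The replicate 2 share includes the promoter peak at the Hspa1a gene end. The start of Hspa1l, which encodes an HSP70 protein of spermatids, lay 547 bp from that of Hspa1a on the opposite strand, and the promoter peak of Hspa1a covered it in both replicates.

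Hspa8, the HSC70 gene, is expressed in nearly all cells and had a higher q score than the inducible pair in both replicates, but not a higher log2 ratio than Hspa1a in either. Its promoter peak (gene at chr9:40801276-40805202, plus strand, 9 exons) reached from position -1754 (counted in bp from the start) to exon 3 in replicate 1, where the q score was 573 and the log2 ratio 4.40. In replicate 2 it reached from position -1493 to exon 3, with a q score of 173 and a log2 ratio of 2.64. The percentiles were 97.0 and 91.0, while the log2 ratio of replicate 2 lay under the 2.72 of all bound genes. The words of the gene were unique to 60.9%, and those of its promoter peaks to 91.6% and 94.1%. The windows of the snoRNA genes Snord14c and Snord14d, which lie inside Hspa8, met the same promoter peak, although their starts are 2307 bp and 2719 bp from the start of Hspa8.

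By q score both testis HSP70 genes lay below Hspa8 in each replicate. They lay above the inducible pair in replicate 2, but in replicate 1 Hspa4l (247) was below Hspa1b (272). Hspa2 (chr12:76404176-76406938, plus strand), which encodes the HSP70 protein of spermatocytes, scored 319 in replicate 1 and 160 in replicate 2, where its log2 ratios were 3.99 and 3.23. Its peak of 3476 bp in replicate 1 was the widest promoter peak among the 10 genes and ran from position -1116 to position 2359 of a gene of 2763 bp, and in replicate 2 the peak was 2576 bp. These were percentiles of 81.3 and 88.5. The long non-coding RNA gene 4930426I24Rik starts 182 bp away on the opposite strand, under the same peak in both replicates.

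Hspa4l (chr3:40745613-40790365, plus strand, 19 exons), an HSP110-type relative of HSP70 that is abundant in testis, had a narrower peak. It spanned 1656 bp with a q score of 247 in replicate 1 and 1574 bp with a q score of 153 in replicate 2. Its percentiles, 69.2 and 86.8, rose between the replicates where those of Hspa1b dropped. By the log2 ratio it stood higher than by the q score: 4.28 in replicate 2 was the highest of the 10 genes, and 5.74 in replicate 1 was exceeded only by the shared peak of Hspd1 and Hspe1.

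Hspa5 (chr2:34772090-34776529, plus strand) is the target gene by which ER stress is often read. Its peak was centred on the start, with midpoints at -81 and -4. The q score was 566 in replicate 1 (chr2:34771077-34772941, log2 ratio 5.06) and 249 in replicate 2 (chr2:34771243-34772929, log2 ratio 3.23). At q score percentiles of 96.9 and 97.5, this was by q score the highest HSP70 peak of the 10 genes in replicate 2. In replicate 1 it was about level with that of Hspa8. All of its peak words were unique.

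The cytosolic HSP90 genes had the strongest peaks. Hsp90aa1 (chr12:110691036-110696395, minus strand), the more stress-responsive of the pair, had q scores of 785 and 309 with log2 ratios of 4.62 and 3.73. Hsp90ab1 (chr17:45567778-45573261, minus strand), the constitutive one, had q scores of 777 and 310 with log2 ratios of 5.46 and 3.51. The percentiles were 99.3 and 98.8 for Hsp90aa1 and 99.2 and 98.8 for Hsp90ab1. Among all peaks of each list, promoter or not, Hsp90aa1 ranked 89 in replicate 1 and 129 in replicate 2, and Hsp90ab1 ranked 93 and 125. The 2 genes changed places between the replicates and were not told apart by score. The shapes differed, since the Hsp90ab1 peak was 3132 bp and 3105 bp wide and the Hsp90aa1 peak 2351 bp and 1789 bp. For Hsp90aa1, 63.9% of the words of the gene and 85.2% and 96.8% of those of its peaks were unique, whereas for Hsp90ab1 these shares were 96.6%, 99.5% and 99.5%.

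The nearest starts of Hspd1 (chr1:55077833-55088243, minus strand) and Hspe1 (chr1:55088148-55091317, plus strand) are 95 bp apart, that of Hspd1 at 55088243 lying inside Hspe1. Both genes shared a single peak over all their starts, so they count as 1 measurement. It lay at chr1:55086914-55088948 in replicate 1, with a q score of 434 and a log2 ratio of 5.97, the highest ratio of the 10 genes in that replicate. In replicate 2 it lay at chr1:55087048-55088887, with a q score of 183 and a log2 ratio of 3.57. The percentiles were 91.9 and 92.5, and all words of the peak were unique. The heat shock element printed above lies inside this peak in both replicates.

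**Figure D2:**
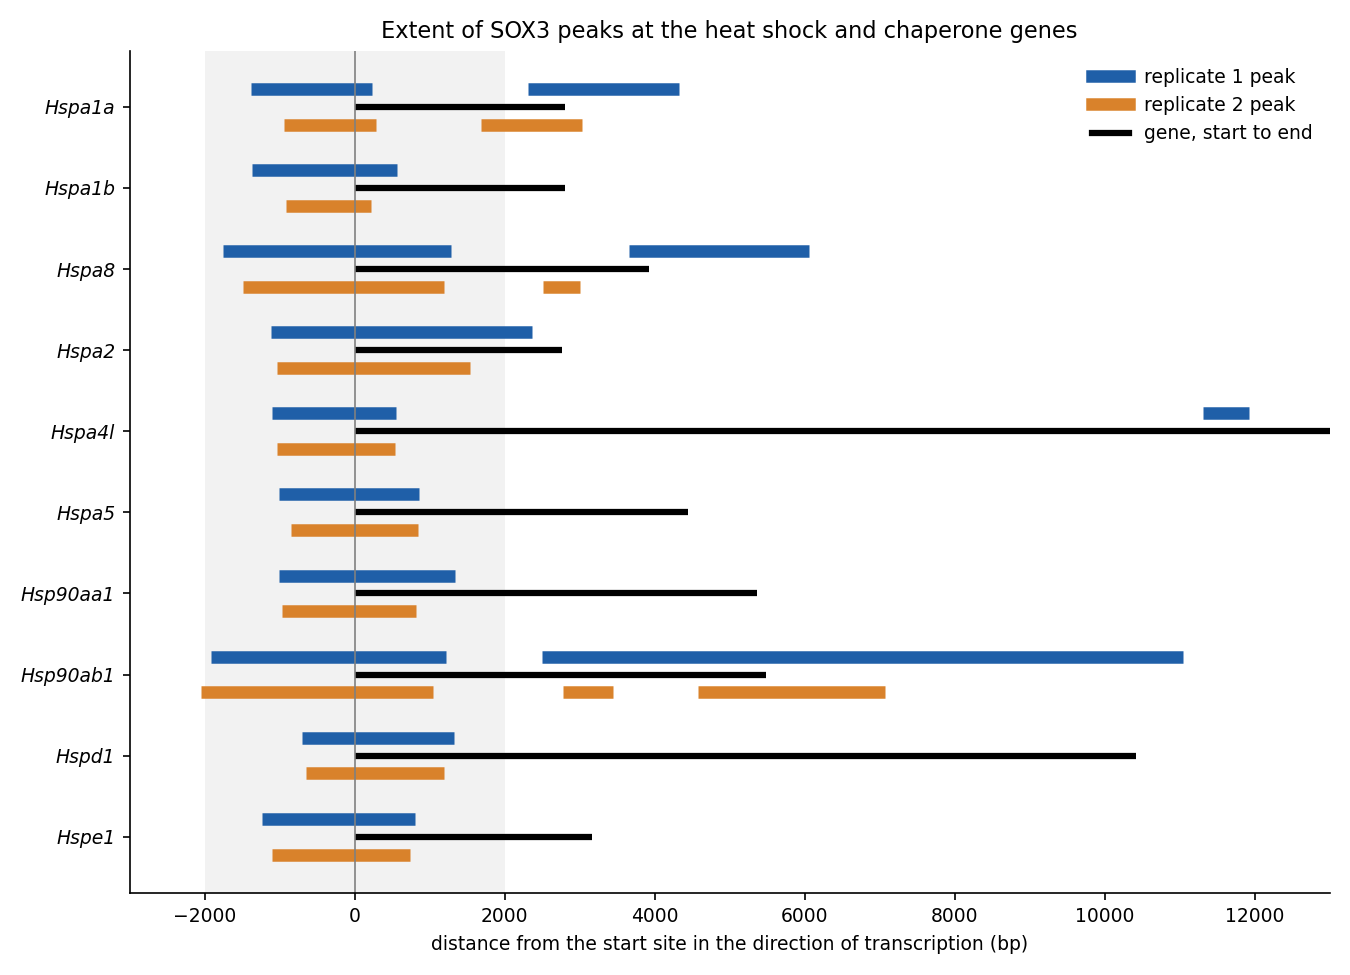
Extent of every SOX3 promoter or gene body peak of the 10 genes, as distance from the start in the direction of transcription (bp), for replicate 1 (blue, above the gene) and replicate 2 (orange, below it). Black bars are the genes (Hspa4l runs past the right edge) and the grey band is 2 kb either side of the start. Every gene has a peak over its start in both replicates, and Hspa1a, Hspa8 and Hsp90ab1 have further peaks toward or past the gene end.

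The order of the genes was much the same in both replicates by q score and less so by log2 ratio. Over the 9 distinct promoter peaks the Spearman correlation between replicates was 0.883 for the q score and 0.689 for the log2 ratio, and over the 13665 genes with a promoter peak in both it was 0.844 and 0.34. Each gene had a higher q score and a higher log2 ratio in replicate 1. The median ratio of the q scores was 2.372 for the 9 peaks and 2.288 for all genes. The median change of the log2 ratio from replicate 1 to replicate 2 was -1.83 for the 9 peaks and -1.11 for all genes, and ran from -2.42 at Hspa1b to -0.76 at Hspa2.

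Peaks outside the promoter were fewer. A gene body peak, one that overlapped the gene with no base within 2 kb of a start, was listed for 4 of the 10 genes in replicate 1 (Hspa1a, Hspa4l, Hspa8 and Hsp90ab1) and for 2 of the 10 in replicate 2 (Hspa8 and Hsp90ab1). Over all genes 35.7% and 27.9% had one, so the counts of the 10 genes are near those shares. The 10 genes are short, with a median length of 4183 bp against 13451 bp over all genes, which leaves little body beyond 2 kb. At Hspa4l, the longest of them, the only gene body peak was a weak one over exon 4 in replicate 1 (608 bp, q score 35.7) with no counterpart in replicate 2.

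At 3 of the genes these peaks lay at the gene end, a feature that was picked out after the values had been seen. A peak covered the annotated end of Hspa1a, Hspa8 and Hsp90ab1 in replicate 1 (3 of 10, against 6.90% of all genes) and of Hspa1a and Hsp90ab1 in replicate 2 (2 of 10, against 3.21%). The largest was at Hsp90ab1, where the peak of replicate 1 (chr17:45562221-45570765) was 8545 bp wide, with a q score of 419 and a log2 ratio of 5.04. It ran from exon 5 to 5557 bp past the gene end, across the start of Slc35b2, a sulfate donor transporter gene, and into Nfkbie, an NF-kappaB inhibitor gene. In replicate 2 the same stretch held separate peaks, of 657 bp (q score 36.8), 2499 bp over the gene end (q score 78.3) and 1473 bp further on (q score 78.8). The 1473 bp peak covered the start of Slc35b2, as did the wide peak of replicate 1, so both also count as promoter peaks of Slc35b2. Whether the signal over the end of Hsp90ab1 belongs to that gene or to its neighbours cannot be told from the lists.

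At Hspa1a the end of the gene was covered by a peak of 2009 bp with a q score of 65.1 in replicate 1 and one of 1343 bp with a q score of 45.3 in replicate 2, which had 714 bp in common. The first began 2312 bp from the start and counted as a gene body peak, the second began 1683 bp from it and counted as a promoter peak, so that the 2 kb limit fell between them. No peak was listed over the end of Hspa1b in either replicate. The words of the peak at the end of Hspa1a were unique to 95.6% in replicate 1 and 73.3% in replicate 2. At Hspa8 the peak of replicate 1 (2397 bp, q score 66.6) started in exon 9 and extended 2127 bp past the gene end. The nearest peak of replicate 2 (544 bp, q score 32.1) lay inside it but began 44 bp past the end, and the gene body peak of replicate 2 (489 bp, q score 33.9) was a separate one over exons 6 and 7 and Snord14d. Hsp90aa1 likewise had a peak that began 41 bp past its end, in replicate 2 (566 bp, q score 44.7).

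**Figure D3:**
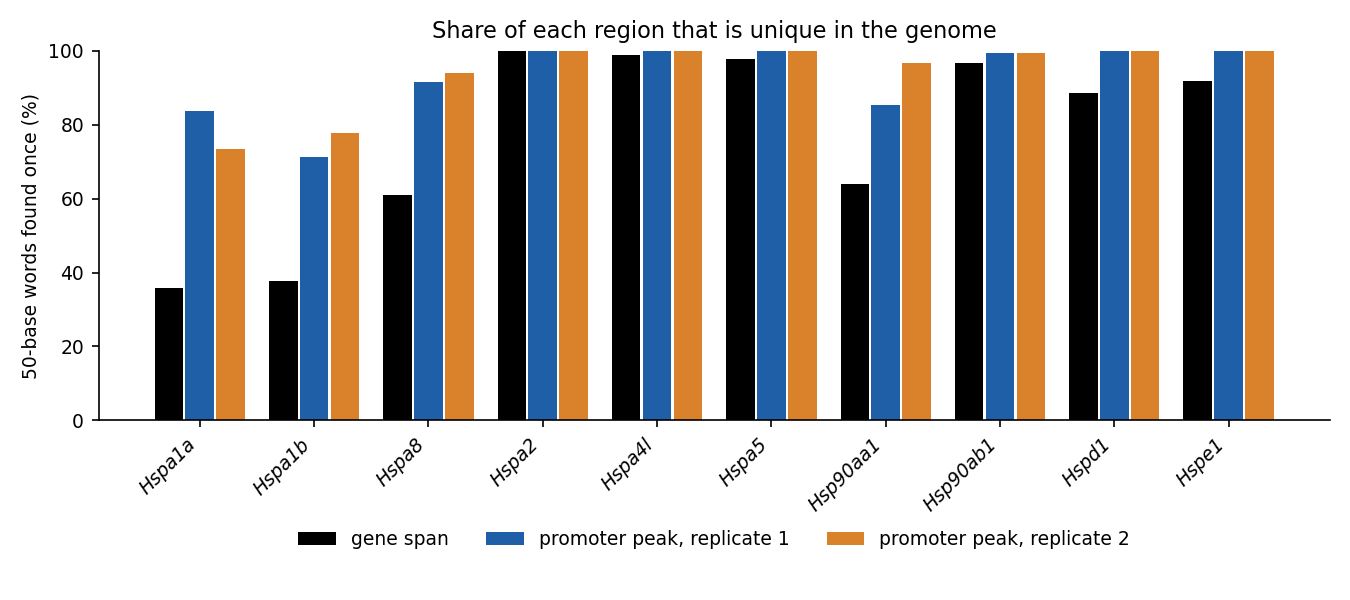
Share of the 50-base words that occur once in the genome (%, bars from 0), for the gene span (black) and for the strongest promoter peak of replicate 1 (blue) and replicate 2 (orange). Gene spans of Hspa1a (35.9%), Hspa1b (37.8%), Hspa8 (60.9%) and Hsp90aa1 (63.9%) are the least unique, and peaks at the other genes are unique to at least 99.5%.

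The wider chaperone network was examined with a list of 129 genes that includes the 10. A promoter peak was present in both replicates for 115 of the 129 (89.1%), and for 105 of the 119 others (88.2%), and absent from both lists for 11. The share in both was 52.2% over all RefSeq genes and 57.9% over protein-coding genes. Over protein-coding genes with a CpG-rich promoter it was 89.8%, close to the share of the list. The family counts below stand beside these same shares. Of the 102 listed genes with a promoter entry 80 were CpG-rich, whereas of the 9 such genes among the 11 without a peak 1 was. The median percentile was 71.6 in replicate 1 and 66.5 in replicate 2 over all the listed genes with a peak, compared with 91.9 and 91.8 for the 10. That gap was not tested.

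All 15 genes of the HSP70 family, all 4 of the HSP90 family and all 15 of the cytosolic chaperonin TRiC and its helper prefoldin had a promoter peak in both replicates. In the HSP70 family the highest was Hspa4, another HSP110-type gene, with q scores of 756 and 257 and a mean percentile of 98.4, well above the 78.0 of Hspa4l. In the HSP90 family Hsp90aa1 and Hsp90ab1 stood level at 99.0. In the mitochondrial family both genes are among the 10. Cct7, a TRiC subunit, led its group at 94.9.

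The HSP40 genes, whose products hand substrates to HSP70, had a promoter peak in both replicates at 40 of 45 genes. Their highest was Dnaja1, a partner of HSPA8, with q scores of 912 and 451, above every one of the 10 genes in both replicates. Among the co-chaperones of HSP70 and HSP90, 21 of 23 were bound in both, led by Stub1, a ubiquitin ligase that acts on chaperone clients (519 and 233), while Unc45b, a myosin chaperone of muscle, had no promoter peak. Among the ER folding factors 8 of 10 were bound in both, led by Calr, the calreticulin gene (632 and 223), and Pdilt, a testis disulfide isomerase of spermatids, had none.

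The small heat shock proteins had the weakest peaks of the families by median percentile in replicate 1, at 20.4, and a median of 39.6 in replicate 2, where the heat shock factors were lower, at 15.4. Of 10 genes 7 were bound in both replicates, with Hspb9 the highest (230 and 103), and Hspb3, Cryaa (a lens crystallin) and Odf1 (a sperm tail protein) had no promoter peak in either. Of the heat shock transcription factors themselves, 3 of 5 were bound in both replicates. Hsf1, the main regulator of the heat shock response, had q scores of 360 and 142, a mean percentile of 84.8, and Hsf3 had no promoter peak.

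**Figure D4:**
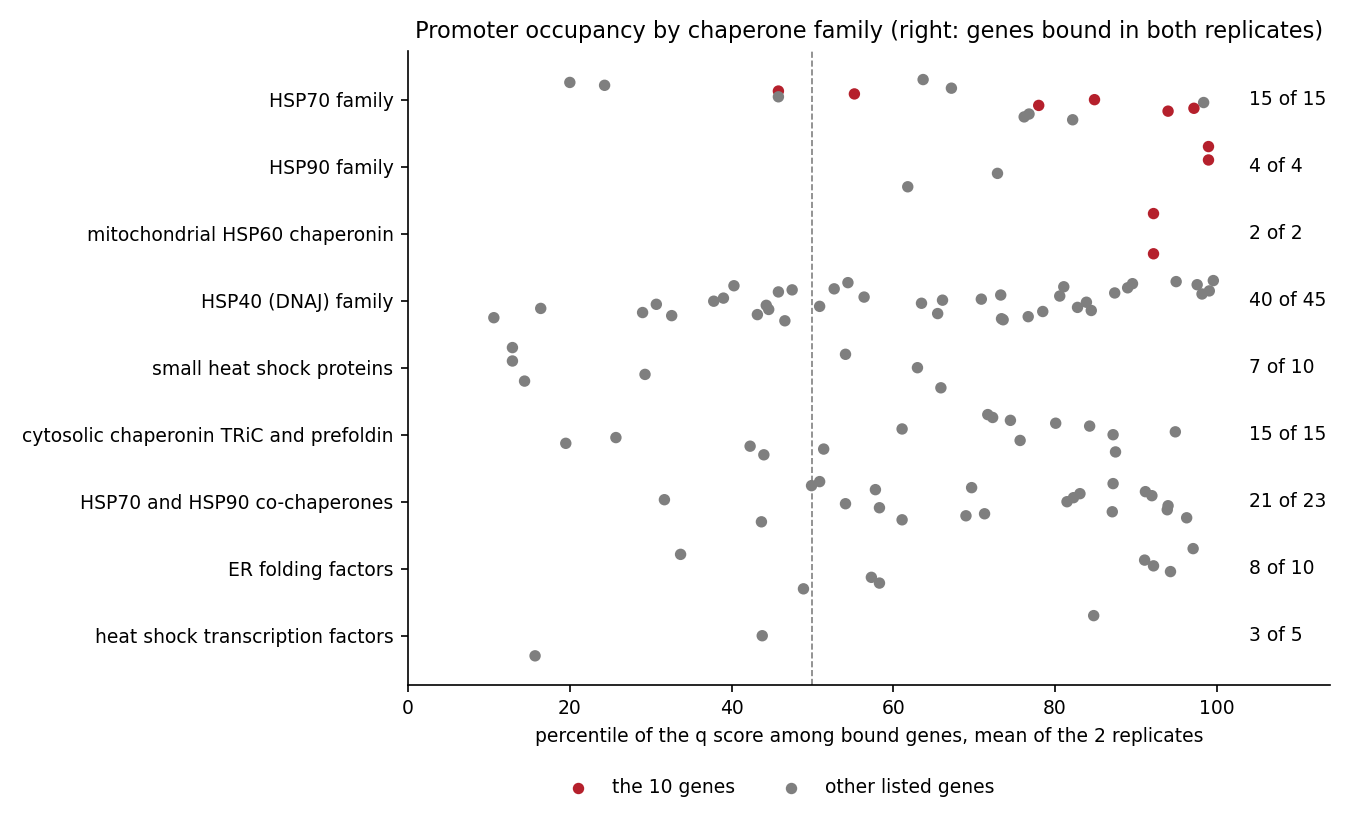
Promoter occupancy of the 129 listed chaperone genes by family: each point is a gene bound in both replicates, placed by the percentile of its q score among bound genes (mean of the 2 replicates), in red for the 10 genes and grey for the others. Vertical offsets only separate the points, the dashed line is the 50th percentile and the counts at the right are genes bound in both replicates. The 10 genes run from 45.8 (Hspa1a) to 99.0 (Hsp90aa1 and Hsp90ab1).

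SOX3 ChIP-nexus, a variant in which an exonuclease trims the DNA toward the bound protein, was deposited for the same tissue as lists of 110 and 18 regions on mouse chromosomes. None of them lay in the promoter or body of any of the 10 genes, 0 in either replicate. With lists this short, most of the 26180 RefSeq genes have no such region either, and a missing region does not show that SOX3 was absent.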

How the data were processed

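SOX3 ChIP-seq had 2 replicates of testis at postnatal day 7. Per the study's methods the authors aligned single-end reads to mm10 with Novoalign, placing reads that fit several sites at random, removed duplicates with Picard and called peaks per replicate with USeq. The deposited lists have no header, and column meanings were inferred from the caller's layout and the values. The authors computed a p score and a q score against input for each peak (10 times the negative log10 of the p-value and of its FDR-adjusted value) and kept q scores above 30. The log2 ratio of ChIP over input was normalised by the authors before it was deposited. The deposited ChIP-nexus lists, from MACS2 2.1.1, hold a fold enrichment (ratio), and positions alone were used. Other samples were not analysed here. The lists give no read counts, so no interval was computed. The study's reporting summary gives the read numbers of both libraries, and the one with the shorter list has more.

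Start sites were those of 45756 RefSeq curated transcripts (GRCm38.p6). Promoter peaks had a base within 2 kb of a start, and the strongest was the one with the highest q score. Replicates matched when a peak covered at least 50% of the other. No test was possible with 1 group of 2. The 10 genes, the chaperone list and its families were chosen with earlier results of these data known. Other genes named share a promoter peak or start within 2 kb, lie under a gene end peak (picked after values were seen), or, in each family, have the highest mean percentile or no peak (where 3 or fewer). Alternatives covered the q score, peak number, window, annotation, overlap and each replicate. Python 3.11.15, pandas 2.3.3 and bedtools 2.31.1 were used, and peak assignment was tested on simulated data.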

Additional observations from a re-analysis of the deposited data

How the results depend on the processing

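All 10 genes had a promoter peak in each replicate, and overlapping peaks in both, with a q score above 60, replicate 1 cut to the number of peaks of replicate 2, windows of 1 kb and 5 kb, the midpoint of the peak and GENCODE start sites. The promoter peak count was also 10 in each replicate alone, and the overlap count 10 with an overlap of 1 bp. The mean number of genes with a gene body peak, 3 in the main definition, was 0.5 with the 5 kb window, which by construction takes such peaks as promoter peaks, and 2 to 4 with either replicate omitted. The mean over replicates of the median percentile, 91.8, was 88.6 with a q score above 60, which removes weak genes from the ranking, 91.6 with replicate 1 cut, 92.0 with GENCODE start sites and 92.2 with the midpoint, and for these last 3 the cause was not tested. Chosen after the data had been seen, counting the peak of Hspd1 and Hspe1 once gave 91.5 and leaving out Hspa1a and Hspa1b gave 93.4. Omitting either replicate gave 91.8 to 91.9 for the percentile and 178 to 434 for the median q score, whose mean was 306. No paired analysis was possible because the samples form a single group and no result comes from a test. The lists hold no read counts at single loci, so a missing peak, as at the end of Hspa1b, cannot be read as missing occupancy, and peaks near a q score of 30 are the least certain.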
